A study of Mus musculus with 2 samples.

Results

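The genes described here are 7 mouse genes of corticosteroid signalling: the receptor genes Nr3c1 and Nr3c2, the receptor co-chaperone gene Fkbp5, the kinase gene Sgk1, the corticotropin-releasing hormone receptor genes Crhr1 and Crhr2, and the steroid enzyme gene Hsd11b1. They were taken by symbol from the 20807 autosomal protein-coding genes of GENCODE M21 because of their roles, by a rule that uses no measured value, though with earlier results of these data known. Open chromatin was measured by DNase-seq, in which DNase I cuts nuclear DNA where nucleosomes leave it exposed, in hippocampal tissue that the labels call a layer of hippocampus without naming the layer. The series held 1 group of 2 samples, biological replicates 1 and 2, from male B6CASTF1/J mice, the offspring of a cross of B6 with CAST, at an age of 2 months. No animal was treated and no other group existed, so nothing was tested between conditions and every value below is a description. The labels gave the replicates separate biosamples and the same donor entry, and did not say whether they came from separate animals, so the spread between them may be partly technical.

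Corticosterone, the main glucocorticoid of mice, acts through the glucocorticoid receptor (Nr3c1) and the mineralocorticoid receptor (Nr3c2). The hippocampus is known for holding both. Without hormone the receptors sit in a chaperone complex with HSP90, and with hormone they enter the nucleus, where both bind an inverted repeat of AGAACA-like half-sites spaced by a few bases, here called the receptor element. Fkbp5 and Sgk1 are textbook genes switched on by this route, and Hsd11b1 regenerates active corticosterone inside cells. Crhr1 receives the peptide signal that starts the hormonal stress response, and Crhr2 binds the urocortin peptides.

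A shared site was a stretch covered by a peak of both replicates, and each replicate's tallest peak over it, in the authors' signal units, gave its height there. Heights are given with replicate 1 first and replicate 2 second. The replicates differed in depth or scaling: heights moved in steps of 0.00535 in replicate 1 and 0.0108 in replicate 2, a ratio of 2.01, and the longer peak lists held 132685 and 59880 peaks. The log2 ratio of replicate 2 to replicate 1 had a median of -0.48 over all 50780 shared sites, so order within a replicate was compared rather than level between them. A promoter was the 500 bp on either side of a protein-coding start, starts with overlapping windows counted as 1 alternative promoter, and promoters were numbered from the 5′ end of each gene. A promoter was called open where it held a shared site. Of the marker genes checked against the label, 5 of 6 pyramidal and 3 of 4 dentate granule genes had an open promoter, against 2 of 5 astrocyte, 3 of 5 oligodendrocyte, 0 of 5 microglial, 0 of 5 vascular and 0 of 4 liver and muscle genes. Over all protein-coding genes the share was 57.1%, so lists of 4 to 6 genes give a coarse check only. In bulk tissue, few open cells of a type and little opening per cell cannot be told apart, and a promoter open in few cells may give no peak.

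Promoters were open at 6 of the 7 genes, all but Crhr2, beside 57.1% of protein-coding genes as a whole. Taken alone, replicate 1 had a promoter peak at 7 of 7 (63.4% of all genes) and replicate 2 at 6 of 7 (58.5%). Of their 22 alternative promoters 9 were open, and 41.4% of all alternative promoters were, so the 7 genes did not stand apart from other genes by that count. Nr3c2, Fkbp5 and Sgk1 each had 2 open promoters. They are 3 of the 6 members with more than 1 promoter, and 11.7% of all genes with several promoters had 2 or more open. These 3 genes have 3, 4 and 5 promoters, and the 11.7% is not matched for that number. With 50% reciprocal overlap of the peaks, Fkbp5 and Sgk1 each had 1 open promoter. The strongest promoter was that of Fkbp5 (heights 7.08 and 3.59), followed by Nr3c2 (5.98 and 3.41), Sgk1 (5.80 and 3.39), Nr3c1 (4.15 and 2.32), Hsd11b1 (4.08 and 1.86) and Crhr1 (0.620 and 1.20). The order was the same in both replicates. Scatter between replicates was taken as the SD of their log2 ratio about its median over all open promoters, divided by the square root of 2. It was 0.385, and it does not measure how heights differ between promoters. Sgk1 stood above Nr3c1 by 0.51 and Hsd11b1 above Crhr1 by 1.67 on the log2 scale, both beyond that spread, while the steps from Fkbp5 to Nr3c2 (0.16), Nr3c2 to Sgk1 (0.03) and Nr3c1 to Hsd11b1 (0.17) were within it. Over all open promoters the median heights were 3.83 and 2.36, so the leading 3 genes lay above the median in both replicates and Crhr1 far below it. That median includes the weaker promoters of genes with several, while the strongest of each member is compared, so the 2 are not like for like.

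**Figure D1:**
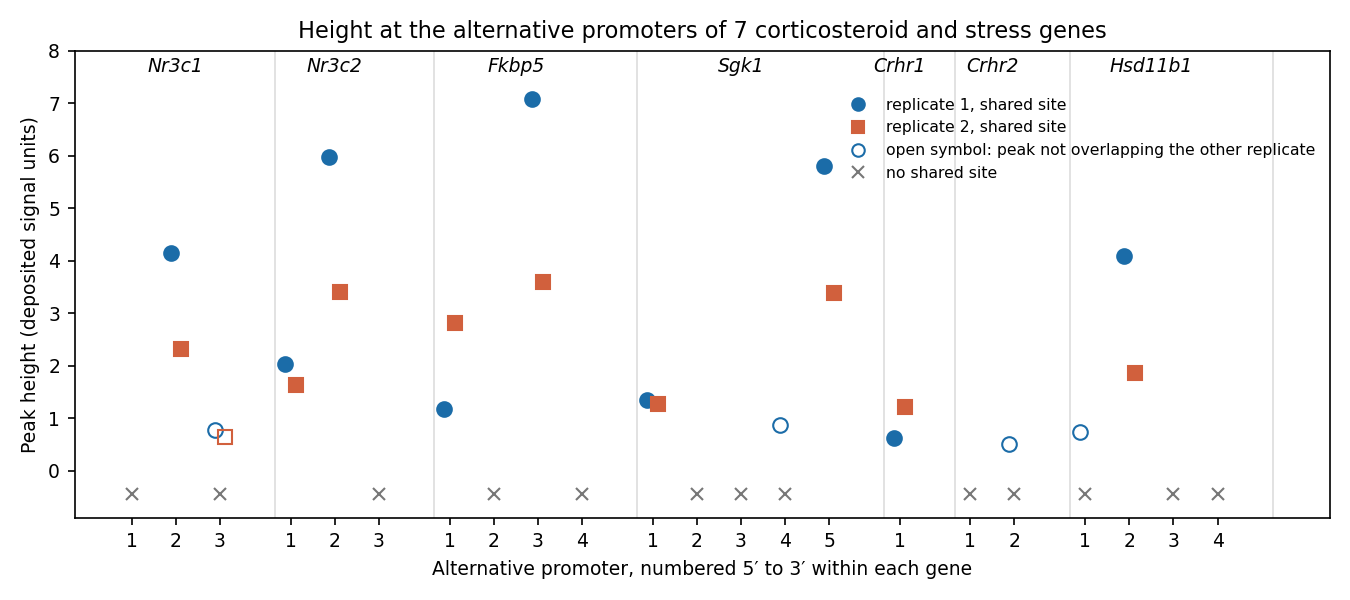
Peak height in the authors' signal units (y axis) at each of the 22 alternative promoters of the 7 genes (x axis, numbered 5′ to 3′), with filled circles for replicate 1 and filled squares for replicate 2 at the 9 open promoters. Crosses mark the 13 promoters without a shared site, open symbols there show peaks that did not overlap one of the other replicate, and 1 strong promoter stands out in each gene other than Crhr1 and Crhr2.

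The gene for the glucocorticoid receptor, Nr3c1 (ENSMUSG00000024431.15, chr18:39410545-39519421, minus strand, GRCm38), had 3 alternative promoters, and its open chromatin lay at promoter 2. That promoter gathers 6 starts between positions 39489283 and 39491301 and held 5 shared sites, the largest number at any promoter of the 7 genes. Their heights were 4.15 and 2.32 at the most upstream site, which lies 400 bp before the first of the 6 starts, and 1.03 to 2.12 in replicate 1 and 1.55 to 2.13 in replicate 2 at the other 4. The signal thus formed a broad cluster, with 13 footprints (short protected stretches inside open chromatin) in replicate 1 and 17 in replicate 2. In replicate 2, 3 of these neighbouring sites had the same height, 2.13, so they were not ordered there. At promoter 1, at position 39519421, neither replicate had a peak. Promoter 3 (starts 39487232 to 39487245) had a peak in each replicate, of height 0.770 and 0.645, but these did not overlap, and the lowest deposited false discovery rate (FDR) there was 0.000212 and 0.00877. Outside the promoter the gene body had no shared site, and the 3 distal sites within 50 kb, all downstream and none above 0.840 in replicate 1 or 1.27 in replicate 2, included 2 abutting ones in an exon that GENCODE assigns to a neighbouring gene.

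The gene for the mineralocorticoid receptor, Nr3c2 (ENSMUSG00000031618.13, chr8:76899442-77245012, plus strand), had open chromatin at its first 2 promoters and little elsewhere. Promoter 2 (starts 76902288 to 76902476) was the stronger, with heights of 5.98 and 3.41, which placed it at the 75.4th and 77.6th percentile of open promoters. Promoter 1 (starts 76899442 and 76899772) had 2.03 and 1.64, and promoter 3, at 76908272, had no peak in either replicate. The 2.03 of promoter 1 came from a site upstream of both starts, over the long noncoding RNA gene Gm10649. The site over start 76899772 itself had 1.13 and 1.64. A further 2 sites lay between the open promoters, so the 5 sites of this stretch were centred between positions -3147 and -187 bp relative to the main start. In the remaining body there was 1 shared site, 183930 bp downstream of the main start, with heights of 0.818 and 0.527. With 7 sites in 446 kb of body and flanks, Nr3c2 had 1.57 shared sites per 100 kb, the 24.8th percentile of autosomal genes and the lowest density of the 7.

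The strongest Nr3c2 site is shown because it carries the main promoter of the receptor, upstream of its start. Capitals in whole sites, here and below, are bases inside a footprint of both replicates, sequences are read on the strand of the gene from the GRCm38 reference, and the CAST allele may differ from them.
Nr3c2 promoter site, chr8:76901981-76902220, plus strand: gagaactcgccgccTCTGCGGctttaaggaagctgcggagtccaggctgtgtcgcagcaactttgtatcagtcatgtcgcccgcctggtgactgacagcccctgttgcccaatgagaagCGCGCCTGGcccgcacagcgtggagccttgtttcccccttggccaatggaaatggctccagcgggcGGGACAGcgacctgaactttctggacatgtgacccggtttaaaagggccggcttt
It held 5 footprints in each replicate, of which 3 of replicate 1 overlapped one of replicate 2. Of its 240 bases 23 were footprinted in both replicates, among them a stretch at the edge of its 1 GC box (GGGCGG on either strand, a sequence bound by SP and KLF factors). GC boxes occurred in 56.8% of all promoter sites, measured in the 200 bp at the centre of each site.

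Fkbp5 (ENSMUSG00000024222.17, chr17:28399094-28517527, minus strand) encodes an HSP90 co-chaperone that lowers the hormone affinity of the receptor and is itself induced by it. It had 14 shared sites, the most of the 7 genes by shared sites, although in replicate 1 alone it had 25 peaks, as many as Nr3c2 and Sgk1. Strong sites lay both at its main promoter and upstream of its first start. The main promoter was number 3 of 4, at starts 28486093 to 28486149, in the 84.9th and 81.6th percentile of open promoters. Its strongest site reached 7.08 and 3.59, and a second site over the promoter 0.722 and 0.947. The part of the strongest site that lies upstream of the first base of the transcript is shown because it holds 3 GC boxes.
Fkbp5 main promoter, upstream part, chr17:28486150-28486300, minus strand: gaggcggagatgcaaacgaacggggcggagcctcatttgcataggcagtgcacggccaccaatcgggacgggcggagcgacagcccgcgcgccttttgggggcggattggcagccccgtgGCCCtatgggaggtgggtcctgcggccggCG
Promoter 1, at start 28517524, was open as well, with heights of 1.18 and 2.82, but through narrow overlaps. Its 2 shared sites were 20 and 60 bp wide, and the second took its replicate 2 height from a peak that reached on to a stronger site upstream. With a 200 bp window, or with 50% reciprocal overlap of the peaks, this promoter was not open. Promoters 2 and 4, at 28511357 and at 28441714 to 28441722, had no peak in either replicate.

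The strong sites before Fkbp5 promoter 1 lay in a row. The site at chr17:28518061-28518260, 637 bp upstream of that start and so outside the promoter window, had heights of 5.36 and 2.82. Farther upstream came 28522601-28522800 with 5.96 and 2.43, 28523161-28523300 with 4.45 and 3.21, and 28528081-28528280 with 5.29 and 2.95. All 4 lay between the 84.9th and 92.9th percentile of shared sites in both replicates. They lie 637 to 10657 bp from the nearest Fkbp5 start. The middle pair overlaps the lincRNA E230001N04Rik, and the farthest lies 2526 bp from a start of the neighbouring gene Armc12. Downstream of the main promoter, an intronic site at 28407501-28407680 reached 3.28 and 1.34, and an intergenic one at 28386301-28386480, beyond the end of the gene, 3.64 and 1.84. With 8 distal sites, those over 2500 bp from every protein-coding start, Fkbp5 had 3.66 distal sites per 100 kb, the 91.3rd percentile of autosomal genes, whose median was 0.972. Starts of noncoding RNA genes were not used, so the pair over E230001N04Rik counts as distal. By the distal peaks of 1 replicate alone Fkbp5 was at the 85.1st percentile in replicate 1 and the 88.1st in replicate 2.

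**Figure D2:**
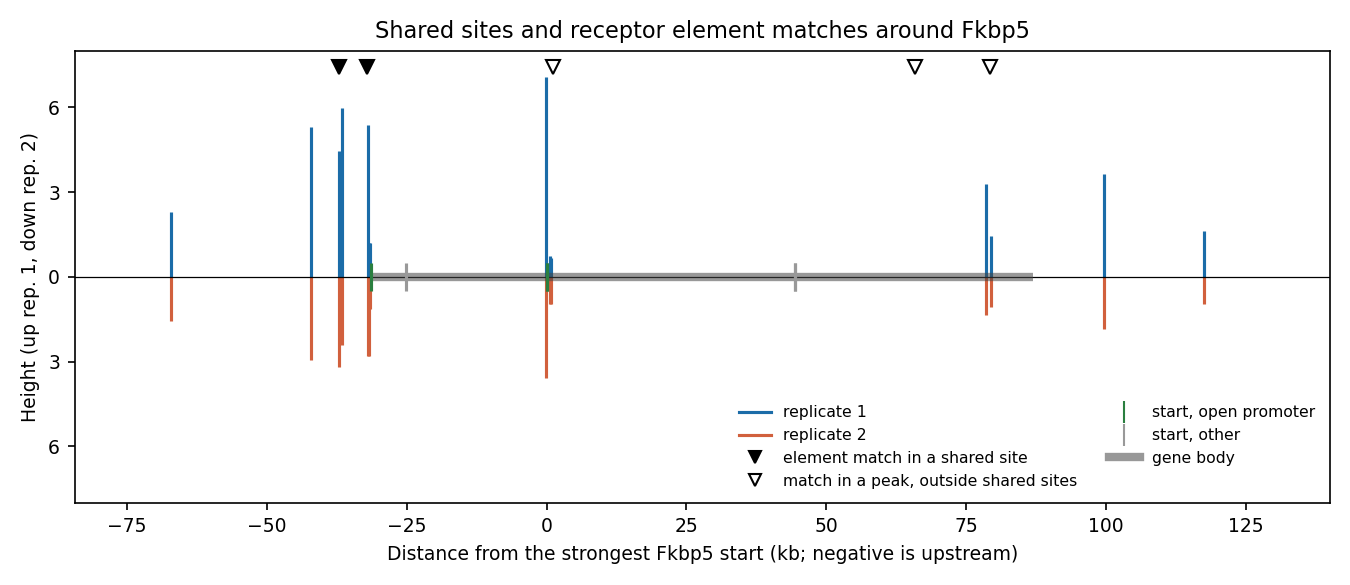
Height of each shared site (y axis, replicate 1 upward and replicate 2 downward, authors' signal units) against distance from the strongest Fkbp5 start (x axis, kb, negative upstream), with the gene body as a bar and starts as ticks. Filled triangles mark receptor element matches in a shared site and open triangles those in a peak outside shared sites: both filled triangles sit on the row of 4 strong upstream sites.

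Receptor element matches were found in peaks at Fkbp5 and at none of the other 6 genes. The element searched was GNACA and TGTNC with 3 free bases between them, which reads the same on both strands, and a match describes the letters only and not binding. Within gene body and 50 kb on each side Fkbp5 had 14 matches, open or not, or 6.41 per 100 kb, the 99.6th percentile of autosomal genes, whose median was 1.70. The other members had 1 to 7 matches, 7 at Nr3c2, 6 at Sgk1, 3 at Hsd11b1, 2 at Nr3c1 and 1 each at Crhr1 and Crhr2, and none of these lay in a peak of either replicate. Of the 14 Fkbp5 matches 5 lay in a peak and 2 in a shared site. Over the autosomes, 1.94% of 40960 matches lay in a peak of either replicate and 0.508% in a shared site. In the 7 loci 4 matches lay in the 132 peaks of replicate 1 and 3 in the 66 of replicate 2, where 0.534% and 0.533% of all peaks held one. The 5 sequences are shown aligned on the element, in capitals with 20 bases on each side, because they let the elements and their surroundings be compared.
Element 1, chr17:28406793-28406845, minus strand: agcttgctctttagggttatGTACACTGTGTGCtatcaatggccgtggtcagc
Element 2, chr17:28420302-28420354, minus strand: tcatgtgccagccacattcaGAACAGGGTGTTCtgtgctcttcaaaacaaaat
Element 3, chr17:28484933-28484985, minus strand: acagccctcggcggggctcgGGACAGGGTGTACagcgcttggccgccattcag
Element 4, chr17:28518160-28518212, minus strand: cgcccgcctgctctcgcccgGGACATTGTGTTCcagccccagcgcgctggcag
Element 5, chr17:28523158-28523210, minus strand: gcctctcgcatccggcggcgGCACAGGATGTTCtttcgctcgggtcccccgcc

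Element 2, in an Fkbp5 intron 65821 bp downstream of the main start, had the most regular sequence and the lowest peak of the 5. It matched the full repeat, AGAACA and TGTTCT with 3 free bases between, at 12 of 12 positions and lay in a peak of replicate 1 only, of height 0.449, where a footprint of 7 bp covered AACAGGG. Elements 1, 3, 4 and 5 matched 9, 8, 9 and 10 of the 12 positions. Element 1 lay in a replicate 2 peak (1.08) that overlaps a replicate 1 peak. It fell just outside the stretch covered by both, the shared site 28406561-28406780 (1.44 and 1.08). Element 3, in an intron 1190 bp downstream of the main start, lay in a peak of replicate 1 only (0.749) with a footprint of 19 bp over part of it. Elements 4 and 5 were the ones in shared sites, at 5.36 and 2.82 and at 4.45 and 3.21. Height thus did not follow likeness to the full repeat among these 5 matches.

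Element 4 was the one of the 5 that lay under a footprint of both replicates. The footprints were GACATTGTGT in replicate 1 and GACATTGTGTT in replicate 2, 10 and 11 bp long, so their edges differed by 1 base. Among all 209 shared sites with an element match, 31.1% had a footprint over a match in replicate 1, 18.7% in replicate 2 and 8.61% in both. Element 5 had no footprint over it, and the nearest one lay 12 bp away in both replicates. The 2 whole sites are shown so that the elements can be seen with the other protected bases. In the first, a longer protected stretch follows the element, and 43 of 200 bases were footprinted in both replicates. In the other, 6 of 140 were, at its downstream edge.
Fkbp5 site with element 4, chr17:28518061-28518260, minus strand: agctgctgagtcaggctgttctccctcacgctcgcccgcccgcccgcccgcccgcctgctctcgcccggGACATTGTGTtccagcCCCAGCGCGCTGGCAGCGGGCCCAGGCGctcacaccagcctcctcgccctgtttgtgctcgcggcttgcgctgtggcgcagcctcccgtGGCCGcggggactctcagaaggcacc
Fkbp5 site with element 5, chr17:28523161-28523300, minus strand: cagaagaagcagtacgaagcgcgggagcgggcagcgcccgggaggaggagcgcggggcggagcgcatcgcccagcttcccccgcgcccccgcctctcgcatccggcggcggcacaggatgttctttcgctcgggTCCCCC
The first also held 4 GC box matches, which overlap one another in 1 repeated stretch, and 1 AP-1 site (TGANTCA). The second held 1 GC box, both strands searched. In 200 bp windows 27.9% of all shared sites held a GC box, 35.6% (21) of the 59 sites of the 7 loci, and 5.65% of all held an AP-1 site.

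Shared sites with an element match were few in this tissue, 0.412% of all shared sites, and the 2 at Fkbp5 were among the strongest of them. By height the site with element 4 ranked 6 and 14 and the site with element 5 ranked 19 and 9 of 209 in replicates 1 and 2, where the medians of the 209 were 1.35 and 1.03. At least 1 such site lay within body and 50 kb of 1.79% of autosomal genes, and at least 2 within that of 0.0673%, or 14 genes. Those 14 genes share 4 groups of sites. Fkbp5 shares its pair with Armc12, Clpsl2 and Clps, and the others were at Zbtb16, at Per1 with 7 neighbouring genes, and at Eva1c, the last of which was singled out after the values were seen. Zbtb16, encoding a zinc finger factor induced by glucocorticoids, had sites of 5.11 and 5.03 in replicate 1 and 3.56 and 2.57 in replicate 2, and Per1, a clock gene with the same property, a strong site (6.34 and 2.61) 1797 bp from its nearest start and a weaker one (1.40 and 1.15). With 50% reciprocal overlap 1 of the 2 Fkbp5 sites was no longer shared.

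Sgk1 (ENSMUSG00000019970.15, chr10:21882184-21999903, plus strand), the serum- and glucocorticoid-regulated kinase that acts on ion channels and transporters, was open at promoters 5 and 1 of its 5. Promoter 5 (starts 21993890 to 21994910) had heights of 5.80 and 3.39, the 73.7th and 77.3rd percentile of open promoters, and 6 footprints in each replicate. Promoter 1, at 21882184, far upstream, had 1.35 and 1.27. Promoter 4, at 21992223, had peaks in replicate 1 alone, up to 0.866, with a lowest FDR of 2.16e-08 there and 0.0231 in replicate 2, and promoters 2 and 3 had no peak. Around the strong promoter lay 3 more sites, at 2.53 and 1.36, at 2.21 and 1.64, and at 3.53 and 1.60, the last over an exon of the gene. The highest peaks without a partner at this gene were in replicate 1, at 2.08 near the main promoter and at 1.74 downstream.

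The strongest distal site of Sgk1, intergenic and 16450 bp downstream of the first start of the main promoter, had heights of 3.54 and 1.84. It is shown for its long footprinted stretch, which holds a sequence like that bound by CTCF, an architectural protein of chromatin loops.
Sgk1 distal site, chr10:22010259-22010420, plus strand: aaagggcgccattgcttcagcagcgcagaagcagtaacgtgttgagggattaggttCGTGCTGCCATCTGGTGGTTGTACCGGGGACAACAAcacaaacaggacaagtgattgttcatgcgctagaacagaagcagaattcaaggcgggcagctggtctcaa
On the opposite strand the match is CCACCAGATGGC, and 36 of the 162 bases were footprinted in both replicates. Distances of this and of the sites of the other loci are drawn in the maps of the 6 loci.

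Crhr1 (ENSMUSG00000018634.10, chr11:104132855-104175523, plus strand), the receptor for corticotropin-releasing hormone, had a weak promoter beside many distal sites. Its 1 promoter held 2 shared sites, the stronger of 0.620 and 1.20, at the 4.20th and 18.2nd percentile of open promoters. It was not open with the shorter peak lists, or when the longer list of replicate 1 was reduced to the length of that of replicate 2. A site 894 bp upstream, outside the window, was stronger in replicate 1, at 1.45 and 0.828. By contrast the gene had 7 distal sites, 4.91 per 100 kb, the 97.0th percentile of autosomal genes. That was the highest of the 7 by shared sites and in replicate 2 alone (4.91, 95.1st percentile), while in replicate 1 alone its 7.01 distal peaks per 100 kb (80.7th percentile) lay below the 8.39 of Crhr2 and the 7.78 of Fkbp5. Shared sites of all kinds in this locus went from 10 to 5 with the shorter lists and to 6 with flanks of 10 kb. The 7 distal sites comprised 3 upstream sites between 0.524 and 1.24 in replicate 1, 3 intronic ones and 1 beyond the 3′ end. The intronic ones reached 2.97 and 1.42 at 104158041-104158240 and 2.20 and 1.96 at 104171601-104171740. The site beyond the 3′ end had heights of 5.83 and 1.77, the 92.6th and 74.7th percentile of shared sites. Its log2 ratio of -1.72 was the lowest of the 59 sites, so its rank differed between replicates. It is shown as the strongest Crhr1 site and for its footprinted stretch.
Crhr1 distal site, chr11:104195941-104196120, plus strand: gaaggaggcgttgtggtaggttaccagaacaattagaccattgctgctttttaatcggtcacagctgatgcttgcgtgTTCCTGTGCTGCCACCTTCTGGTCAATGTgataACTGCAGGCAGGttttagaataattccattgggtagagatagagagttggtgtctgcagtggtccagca
It also holds a CTCF-like match, CCAGAAGGTGGC on the opposite strand, and 41 of its 180 bases were footprinted in both replicates.

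Crhr2 (ENSMUSG00000003476.16, chr6:55090049-55133016, minus strand), which binds the urocortins, was the member without an open promoter. At promoter 1 (starts 55132841 to 55133014) neither replicate had a peak or a listed FDR. At promoter 2, at 55117913, replicate 1 had a peak of 0.497 with a lowest FDR of 0.00189, and replicate 2 had none. No shared site lay in its gene body. The 4 distal sites of the locus lay in its flanks, 3 of them upstream within the lincRNA Gm34358, at 1.96 and 0.990, at 0.417 and 0.990, and at 2.55 and 1.19, and 1 in an intron of Gars (0.775 and 0.635).

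Hsd11b1 (ENSMUSG00000016194.14, chr1:193221634-193264075, minus strand) had 1 open promoter of 4. It was promoter 2 (starts 193242629 and 193243561), with heights of 4.08 and 1.86, the 53.5th and 36.5th percentile of open promoters, through a site 188 bp from the nearer start. Promoter 1, at 193264075, had a replicate 1 peak of 0.727 alone with a lowest FDR of 0.000398, and promoters 3 and 4, at 193241598 and 193240410, had no peak. The strongest site of the locus, at 193173361-193173660 with 5.95 and 2.31, was the promoter of the neighbouring gene A130010J15Rik and held a cAMP response element, TGACGTCA, found in 2.71% of promoter sites and 1.25% of all shared sites. The highest peak of the 7 loci that was found in 1 replicate only lay here, at 193255621-193255780, with a height of 3.18 and 4 footprints in replicate 1, at the 90.8th percentile of that replicate's peaks.

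**Figure D3:**
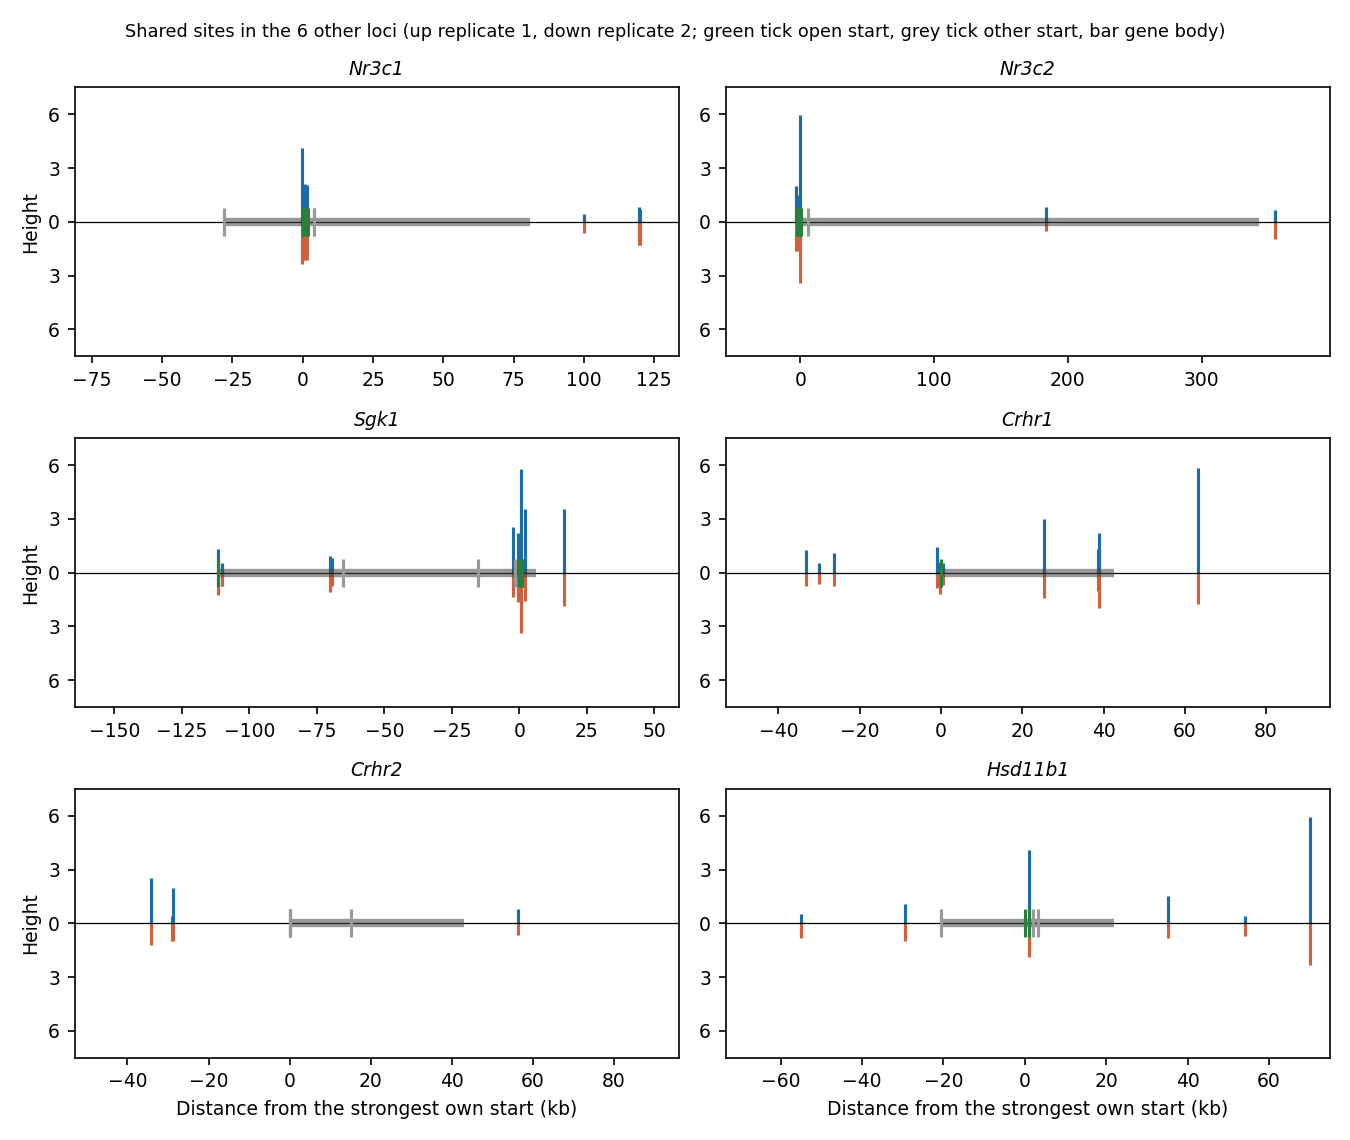
Height of each shared site (y axis, authors' signal units, replicate 1 upward and replicate 2 downward) against distance from the strongest own start, or for Crhr2 the first start (x axis, kb), in the 6 loci other than Fkbp5. Nr3c1 and Nr3c2 carry their tall sites at the promoter, Crhr1 has its tallest site 63176 bp downstream of its start, and Crhr2 has none at its starts.

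Across all 7 loci there were 59 shared sites, of which 17 lay at an own promoter, 15 in an own intron, 17 between genes, 4 in exons, 4 in introns of another gene and 2 at the promoter of another gene. Distal sites were 28 of the 59, against 55.5% of all shared sites, and 7 of 7 genes had at least 1, against 71.9% of autosomal genes. Sites per 100 kb were 7.01 at Crhr1, 6.41 at Fkbp5, 4.59 at Sgk1, 4.21 at Hsd11b1, 3.83 at Nr3c1, 2.80 at Crhr2 and 1.57 at Nr3c2, where the median autosomal gene had 3.46 and the quartiles were 1.59 and 5.77. Crhr1 and Fkbp5 were thus above the upper quartile and Nr3c2 just below the lower one. This order rests on sharing between replicates. In replicate 1 alone Sgk1 (11.5 peaks per 100 kb), Fkbp5 (11.4), Hsd11b1 (11.2) and Crhr2 (10.5) stood above Crhr1 (9.11), Nr3c1 (6.22) and Nr3c2 (5.61). In replicate 2 alone Crhr1 (7.71) and Fkbp5 (5.95) again led and Nr3c2 (2.24) was again lowest. Flanks of 50 kb hold sites of neighbouring genes, 5 other protein-coding genes each at Fkbp5 and Hsd11b1, and counts of sites do not assign them to a gene. Median heights of the 59 were 1.45 and 1.27, near the 1.48 and 1.09 of all shared sites.

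Of the 28 distal sites 6 held a CTCF-like core on either strand: CC, 3 free bases, AG, 2 free bases and GGC. This pattern was chosen after the footprinted bases had been seen. The share, 21.4%, is that of all distal shared sites (21.6%), so it is not particular to these loci. Since it was read from footprinted bases, that these 6 matches lay under a footprint of both replicates was set by the choice, and the 21.4% of distal sites with such a footprinted match, beside 13.5% of all distal shared sites, is no independent result. The other 2 matches in the 59 sites, at the Fkbp5 main promoter and 894 bp upstream of Crhr1, had no footprint of both replicates over them. The 6 lay at Sgk1 and Crhr1 (above), at Crhr2 in the 2.55 and 1.19 site, and at Fkbp5 in the sites at 28386301, 28528081 and 28553141, the last with heights of 2.29 and 1.58. At Fkbp5 they flank the gene on both sides. The strongest of these is shown so that it can be set beside the receptor element sites.
Fkbp5 distal site, chr17:28528081-28528280, minus strand: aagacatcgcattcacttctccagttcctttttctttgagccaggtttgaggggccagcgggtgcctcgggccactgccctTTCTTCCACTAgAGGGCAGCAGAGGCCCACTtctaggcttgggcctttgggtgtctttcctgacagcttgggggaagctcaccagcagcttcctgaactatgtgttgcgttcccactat
Its match is CCACTAGAGGGC, and 30 of 200 bases were footprinted in both replicates. In a stricter form, with G after AG, the pattern was present in 2 of the 59 sites, or 3.39% against 8.92% of all sites in 200 bp windows. Matches of EGR, NRF1, NFI, RFX and MEF2 motifs were found in 0 of the 59, and in 0.0551% (NFI) to 2.18% (MEF2) of all sites.

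Replicate 2 found mostly what replicate 1 had found. In the 7 loci replicate 1 had 132 peaks and replicate 2 had 66. Of these 59 (44.7%) and 57 (86.4%) overlapped a peak of the other replicate, against 38% and 81.8% over all peaks. The 73 peaks of replicate 1 alone were low, with a median of 0.556 and a range of 0.316 to 3.18, and 10 of them had a listed FDR in replicate 2, against 8.45% of all such peaks. The 9 of replicate 2 alone ranged from 0.506 to 0.871, and 6 had a listed FDR in replicate 1, against 28.4%. At the 13 promoters that were not open an FDR was listed at 4 in replicate 1 and 2 in replicate 2, against 13.1% and 4.18% of all such promoters. At the 59 shared sites the log2 ratio of replicate 2 to replicate 1 had a median of -0.31 and a range of -1.72 to 1.25. Heights were higher in replicate 1 at 36 sites and in replicate 2 at 23, and the correlation of heights over sites was 0.812 (Pearson, on the log scale) and 0.806 (Spearman), over sites of the same 2 libraries that are not independent. Footprints of replicate 2 were found again less often than its peaks. The 59 sites held 125 in replicate 1 and 94 in replicate 2, of which 53 (42.4%) and 58 (61.7%) overlapped one of the other replicate, against 37.5% and 57.2% over all shared sites. Of the 59 sites 38 were in both of the shorter lists, against 54.5% of all shared sites.

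**Figure D4:**
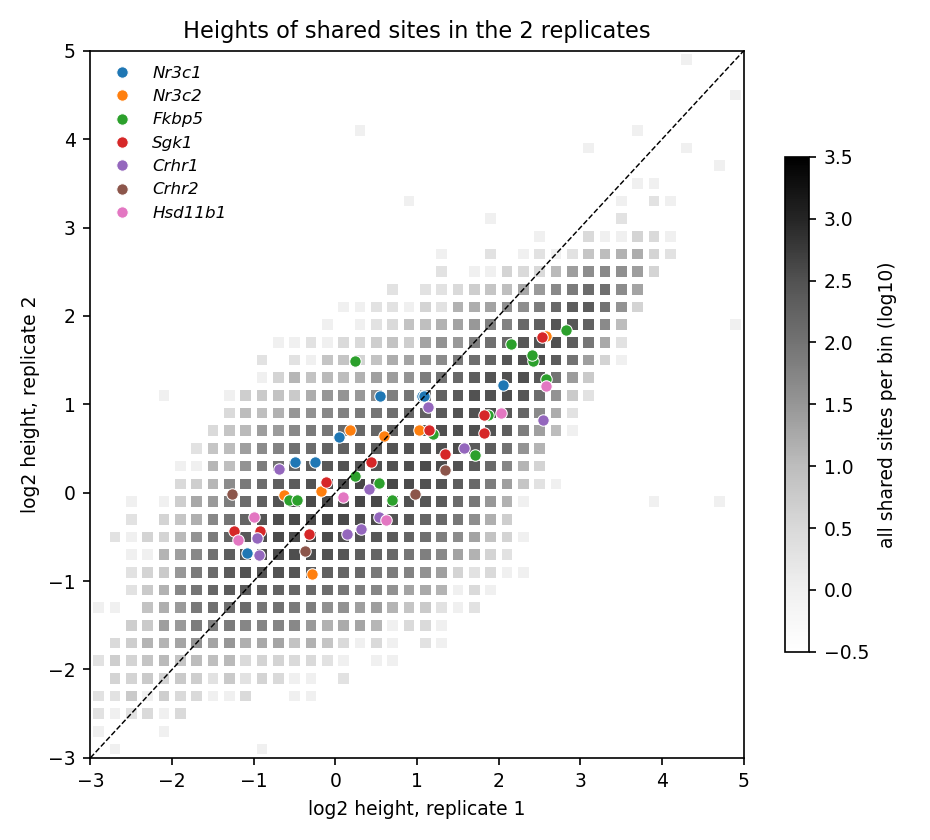
Heights of shared sites on log2 axes, replicate 1 (x) against replicate 2 (y), with the 59 sites of the 7 loci as points coloured by gene over grey bins of all 50780 shared sites, and a dashed line of equal height. Tall sites lie below the line, and weak ones on both sides of it, as 36 of the 59 were higher in replicate 1.

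Among the listed genes, promoters of the machinery around the receptors were open more often than those of genes that make or steer the hormone. The lists were chosen by role, with earlier results of these data known. They were not matched for how many tissues use their genes, so the contrast describes these lists only. The background for all 5 lists is the 57.1% found over protein-coding genes, and all 61 genes of the lists matched by symbol. Of the chaperones that hold and fold the receptors 11 of 11 were open, led by the heat shock genes Hspa8 (13.6 and 5.38), Hspa4 (11.1 and 4.87) and Hsp90ab1 (9.70 and 5.68). Of the receptor coregulators 11 of 11 were open, led by the remodelling ATPase gene Smarca4 (9.42 and 5.12), the coactivator gene Ncoa2 (8.24 and 4.07) and the acetyltransferase gene Ep300 (6.63 and 2.36). Known corticosteroid targets other than Fkbp5 and Sgk1 were open at 14 of 17, led by Ddit4 (10.3 and 4.70), Per1 (8.84 and 4.42) and Klf9 (7.87 and 5.31), while the epithelial sodium channel gene Scnn1a had no peak. Median heights at the strongest open promoter of each gene were 8.94 and 4.34 for chaperones, 4.19 and 2.52 for coregulators and 3.94 and 2.15 for targets. Over all open alternative promoters they were 3.83 and 2.36, but that count includes the weaker promoters of a gene, so the 2 are not like for like.

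Steroid metabolism genes were open at 2 of 11. These were Srd5a1 (8.00 and 4.09), a steroid reductase gene, and H6pd (2.69 and 1.76), whose product supplies the cofactor for the Hsd11b1 enzyme. Among the other 9, Cyp11a1, Cyp11b1 and Cyp11b2, enzymes of adrenal steroid synthesis, had no promoter peak. Hsd11b2, which inactivates corticosterone in mineralocorticoid target tissue such as kidney, had a peak of 0.626 in replicate 1 only. Genes of the corticotropin-releasing hormone system and the hormonal axis were open at 1 of 11, the vasopressin receptor gene Avpr1a (0.364 and 0.742). Avp, Avpr1b and Crhbp had no peak, and Crh itself had a peak of 0.452 in replicate 2 only. Shared sites with a receptor element lay within 50 kb of 2 of the 17 targets, Per1 and Zbtb16, and of 1 of the 11 coregulators, Ncoa1 (1.27 and 1.48, 69 bp from a start), and of none of the other 3 lists, against 1.79% of autosomal genes.

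**Figure D5:**
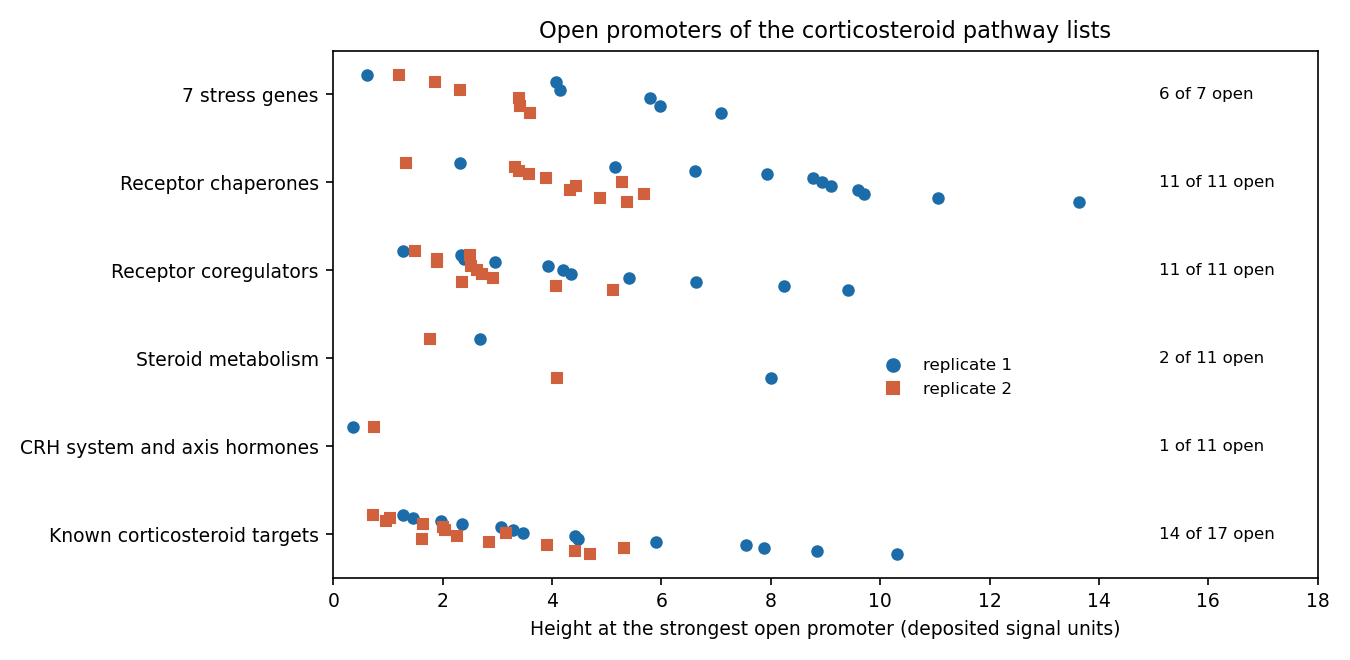
Height at the strongest open promoter (x axis, authors' signal units) of each open gene in the 7 genes described here and in 5 pathway lists (rows), with circles for replicate 1, squares for replicate 2 and the number open at the right. Chaperone promoters reach 13.6 in replicate 1, and the axis hormone list has 1 open gene, below 1 in both replicates.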

How the data were processed

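DNase-seq was available for 1 group of 2 samples. Per the labels, reads were placed on mm10, with aligner, callers and cut-offs not given in the sources used here. For each sample the authors deposited peaks with a height read as a signal value, a longer and a shorter list, footprints, and FDR (q-value) intervals, in which the deposited footprint p-value column holds a constant, so footprints were used by position. Heights pool both parental alleles.

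The longer lists were used (132685 and 59880 peaks, with 255536 and 111355 footprints). Overlaps of at least 1 bp between replicates gave 50780 shared sites. Promoters (500 bp), loci (gene body plus 50 kb), distal sites (over 2500 bp from every protein-coding start) and density were computed with Python 3.11.15, pandas 2.3.3, numpy 2.4.6, pysam 0.24.0 and matplotlib 3.10.9 from GENCODE M21 and the GRCm38.p6 sequence, and checked on simulated sites. The last peak on each of 21 chromosomes ended within its GRCm38 length. Motifs were matched exactly on both strands. Depth is not given, so no interval was put on the values reported. A binomial interval served only to label whether agreement percentages stayed or moved under other settings. With 1 group no test was made. Besides the 7 genes, the text gives the 3 open list genes highest by mean height, up to 3 without a peak in alphabetical order, and others identified as they appear. The 7 genes, the lists and the alternatives were chosen with earlier results of these data known. Alternatives were other peak lists, overlaps, windows, flanks, motifs and either replicate alone.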

Additional observations from a re-analysis of the deposited data

How the results depend on the processing

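The 59 shared sites became 39 with the shorter lists, 36 with 50% reciprocal overlap and 38 with flanks of 10 kb, and leaving out a replicate gave 66 to 132. The 2 element sites became 1 with reciprocal overlap and 4 with the motif ACANNNTGT without its outer bases, and 3 to 4 with a replicate left out. That shorter motif was in 3.79% of all shared sites. The 2 sites it added lay at Nr3c1 promoter 2 and, in the Hsd11b1 locus, at the A130010J15Rik promoter. With sites widened by 50 bp the 2 element sites became 3. Footprints of replicate 1 went from 125 to 266 with replicate 2 left out. Agreement of replicate 1 peaks, 44.7%, was 27.3% with reciprocal overlap and 67.6% with lists of equal length, and that of replicate 2, 86.4%, was 56.1% and 71.2%, and 94.7% with the shorter lists. The median log2 ratio of -0.31 was -0.77 with reciprocal overlap. Promoters not open with a listed FDR in replicate 2 were 2, and 1 with a 200 bp window. By gene, Nr3c1 had 2 open promoters in either replicate alone, Crhr2 had 1 in replicate 1 alone, Hsd11b1 had 2 in replicate 1 alone and 3 with a 2000 bp window, and Sgk1 had 1 with reciprocal overlap. Of values that answer a main question 43 stayed and 15 moved, and of single-gene values 67 stayed and 31 moved. Stayed does not mean unchanged. Counts stayed within a set ratio, and log2 values within the SD of 0.385. Percentages stayed inside a binomial interval that treats peaks as independent. Counts that stayed include 59 shared sites against 46 with lists of equal length, and 9 open promoters against 12 with a 2000 bp window. Densities per gene in 1 replicate alone were added after the data were seen. The causes were not tested. No paired analysis was possible because there was 1 group.

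With 2 samples of 1 group, unknown depth, an unnamed layer and pooled alleles, weak sites found in 1 replicate cannot be told apart from sites missed in the other, and heights between replicates carry a scale difference.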
